A study of Mus musculus with 6 samples.

Results

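The gasdermins are a family of membrane pore-forming proteins, and their mRNAs were followed here in the acid-secreting part of the mouse stomach with and without Lasp1. The members were the probes annotated to Gsdma, Gsdma2, Gsdma3, Gsdmc or Gsdmd, by platform symbol or by the current symbol of the same gene identifier. They came to 9 probes for 5 genes, of 45281 probes and 19057 named genes in all. RNA of fundic mucosa came from 3 Lasp1 knockout samples, set against 3 wild type samples, all of C57Bl/6Ncr mice aged 3 months. Lasp1 encodes an actin-binding protein that is abundant in parietal cells, and the study asked how its loss alters gene expression in the mucosa. Each sample was hybridised as biotin-labelled cRNA to 1 Illumina bead array, which gave 1 intensity per probe. The labels do not describe the Lasp1 allele, and they do not say whether each array held a separate mouse. The p-values therefore measure the spread between these samples, which may in part be technical.

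A gasdermin consists of a pore-forming N-terminal part held inactive by its C-terminal part. Proteases cut the linker between them, and the freed N-terminal part inserts into membranes, where its pores release interleukins and can kill the cell by pyroptosis. In the mouse the A and C genes have multiplied into neighbouring copies, where humans have a single GSDMA and a single GSDMC gene. The A group is known from upper gastrointestinal epithelium and skin, and human GSDMA has been described in the pit cells that line the stomach surface.

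Facts that bear on all values are these. Every array had a median intensity of 1000 and no value under 542, so the values had been scaled and still held background, which makes the fold changes of dim probes too small. All samples read as female, with Xist at 55746 or more and 16 probes of Y-linked genes at 1212 or less, so the brightest Y-linked probe of an array was taken as its background ceiling (1020 to 1212). The gastric markers were bright on all arrays, for example the proton pump subunit Atp4a at 443047 to 539091 in knockout and 438485 to 513259 in wild type mucosa. Array wild type 3 carried pancreatic acinar transcripts, with a summed intensity of 9059921 over 16 genes against at most 1205540 on the other arrays, and it had the lowest value of the 6 for 64.9% of the 22640 probes above the filter, a mean intensity over 991, the median of all probes. Arrays knockout 1 and wild type 2 carried the most squamous epithelial transcripts. In bulk RNA, fewer cells of a type and less RNA per cell cannot be told apart.

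Lasp1 itself served as the check of the labels. Its brightest probe, ILMN_2879746, read 88521, 111002 and 89823 on the knockout arrays, against 270957, 275068 and 177315 on the wild type arrays. The groups did not overlap, and the log2 difference of -1.30 (SE 0.21), or 40.6% of wild type, had an exact permutation p of 0.1, the smallest that 3 against 3 arrays allow. In limma it did not pass over all probes (unadjusted p = 0.000412, adjusted p = 0.994). A second probe, ILMN_2879745, read 33.3% of wild type, and a dim one, ILMN_2596851, differed by -0.21 (SE 0.19). On the knockout arrays the brightest probe still stood 78.0 to 92.4 times above the background ceiling, and the second probe 6.55 to 7.20 times. Which part of Lasp1 the allele alters, and which probes fall in it, is not known here.

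Gsdma2 was detected on all 6 arrays and did not differ beyond its spread between the genotypes. It lies at chr11:98646743-98657964 (GRCm38.p6), between Gsdma3 and Gsdma, and is known in the mouse as a gene of the stomach lining. Its probe, ILMN_2612219, read 347073, 436745 and 346249 on the knockout arrays, against 358048, 383620 and 252967 on the wild type arrays. Every array thus lay 209 to 363 times above its background ceiling, and the highest and the lowest array differed by a factor of 1.73. The lowest array was wild type 3, and the other 5 overlapped between the genotypes.

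Gsdma2 averaged 376689 ± 52012 in knockout and 331545 ± 69241 in wild type mucosa (SD, n = 3 each). The log2 difference was 0.20 (SE 0.19, 95% interval -0.26 to 0.66), a ratio of 1.15 with an interval of 0.83 to 1.58, and it did not pass (limma adjusted p = 0.994, exact permutation p = 0.6). Without wild type 3 the log2 difference was 0.01. Within titles 1 to 3 it was -0.09 and within titles 4 to 6 it was 0.62. The titles carry a number from 1 to 6 whose meaning the labels do not give. Both sets hold both genotypes, but the first has knockout 1 as its single knockout array. The second has wild type 3 as its single wild type array. The summed intensity of 7 surface pit markers, which include the mucin gene Muc5ac and the gastrokines Gkn1 and Gkn2, ran from 1820676 to 2118784 in knockout and from 1690001 to 1875076 in wild type mucosa, and it too was highest on knockout 2 and lowest on wild type 3. Of these 7 markers, 4 (57.1%) were lowest on wild type 3, against 64.9% of the probes above the filter. The summed intensity of 9 parietal markers ran from 1190383 to 1372134 in knockout and from 1155642 to 1289071 in wild type mucosa. That sum was also highest on knockout 2 and lowest on wild type 3, as were the intestinal and mast cell sums. The part of any of these cells in the Gsdma2 signal was not tested. The highest probe of each array read 533888 to 677045, so Gsdma2 stood below the top of the scale on all 6, and how linear the response is at this brightness is not known from the files. The genes most like it over the 6 arrays, among 11864 other named genes above the filter, were Smim15 (Pearson r of 0.999 on log2 values), the actin gene Actb (0.996), Ercc6l2 (0.995), Hpdl (0.994) and Dlgap4 (0.991). Actb read 205616, 255551 and 205808 on the knockout arrays, against 207220, 232262 and 143000 on the wild type arrays. It was highest on knockout 2 and lowest on wild type 3, as Gsdma2 was, which its choice by correlation favours.

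Gsdma showed another pattern, with signal on the 2 arrays richest in squamous transcripts. Gsdma, at chr11:98664337-98677708, is known from skin and upper gut epithelium. Its single probe, ILMN_1213351, read 3994, 782 and 815 on the knockout arrays, against 834, 1768 and 833 on the wild type arrays. Knockout 1 stood 3.92 times and wild type 2 stood 1.49 times above the background ceiling of the array, and the other 4 arrays stayed below it.

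The squamous markers followed the same 2 arrays. Of 17 measured squamous genes, 14 were highest on knockout 1 and next highest on wild type 2, as 4.90% of the probes above the filter were. Their summed intensity was 1258200 on knockout 1 and 707707 on wild type 2, and at most 48068 on the other 4 arrays, so it ranged from 39671 to 1258200 in knockout and from 28222 to 707707 in wild type mucosa. Lor, the cornified envelope protein loricrin, read 399114, 3355 and 2027 on the knockout arrays, against 10048, 274920 and 1759 on the wild type arrays. Trp63, the p63 transcription factor of basal squamous cells, read 6725, 753 and 919 on the knockout arrays, against 749, 3125 and 725 on the wild type arrays. Among the squamous markers, Dsg3 was at background on all 6 arrays. Sprr1a was bright on all 6, at 13353 to 14883 in knockout and 7691 to 14657 in wild type mucosa. Other transcripts were high on 1 or both of these arrays. S100a9, a neutrophil marker, read 18447, 792 and 806 on the knockout arrays, against 996, 3503 and 863 on the wild type arrays, and S100a8 had the same 2 arrays highest. The other 3 of 5 measured neutrophil markers, Elane, Mpo and Ngp, were at background on all arrays, and the 5 summed to 4469 to 32830 in knockout and 4664 to 7538 in wild type mucosa. Of 9 smooth muscle markers 2 were at background. The list summed to 255054 on knockout 1 and to 112930 on wild type 1, the next highest, but to 68825 on wild type 2. The part of any of these tissues in the Gsdma signal was not tested.

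**Figure D1:**
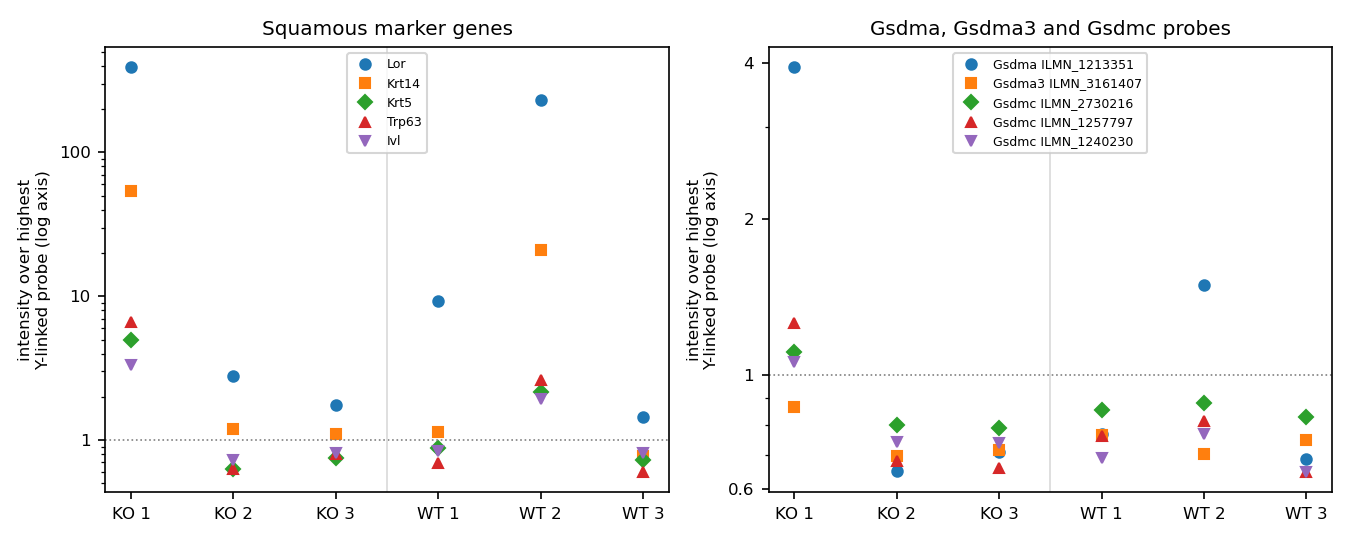
Intensity over the highest Y-linked probe of the same array, on log axes that differ between the panels, for 5 squamous marker genes (left) and for the probes of Gsdma, Gsdma3 and Gsdmc (right), on the knockout (KO) and wild type (WT) arrays; each point is 1 array, and the dotted line marks the background ceiling. The squamous genes and Gsdma stand above the line on KO 1 and WT 2, with Gsdma at 3.92 and 1.49 times the ceiling there. Lor stands above it on every array, and Krt14 also on KO 2, KO 3 and WT 1. The Gsdmc probes stand above it on KO 1 alone.

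The genotypes could not be separated for Gsdma. It averaged 1864 ± 1845 in knockout and 1145 ± 539 in wild type mucosa (SD, n = 3 each), with a log2 difference of 0.35 (SE 0.66, 95% interval -1.21 to 1.91, limma adjusted p = 0.994, exact permutation p = 1). Without knockout 1 the difference was -0.42, and without both arrays richest in squamous transcripts it was -0.06. With squamous and pancreatic scores as covariates it was 0.29 (limma unadjusted p = 0.119). Within titles 1 to 3, where knockout 1 is the single knockout array, the difference was 1.72. Within titles 4 to 6, where wild type 3 is the single wild type array, it was -0.06.

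The genes most like Gsdma over the 6 arrays, found in the same way, were Alox12b, an epidermal lipoxygenase, with a Pearson r of 0.9995 on log2 values, the serpin gene Serpinb3c (0.9988), the transcription factor gene Tfap2c (0.9988), Slurp2 (0.9987) and Dapl1 (0.9986). Alox12b read 7100, 993 and 1052 on the knockout arrays, against 1133, 2799 and 1099 on the wild type arrays. All 5 were highest on knockout 1 and next on wild type 2, which their choice by correlation with Gsdma favours. Gsdma exceeded the background ceiling on these arrays alone, so the correlations rest largely on them. The points share their libraries, and the likeness is given as a description.

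Gsdma3 was not detected above background on any array. It lies at chr11:98626349-98638801, and dominant mutations of it cause hair loss in mice. Its probe, ILMN_3161407, read 881, 837 and 824 on the knockout arrays, against 830, 834 and 904 on the wild type arrays, or 0.70 to 0.86 times the background ceiling. The groups overlapped, and the highest and the lowest array differed by a factor of 1.10. It lay under the filter, and in the fit of all probes its log2 difference was -0.01 (SE 0.08, 95% interval -0.20 to 0.17, limma adjusted p = 0.999). The A genes are close copies of each other, and the sequences of the probes are not used here, so how far each probe is specific to 1 copy was not tested.

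**Figure D2:**
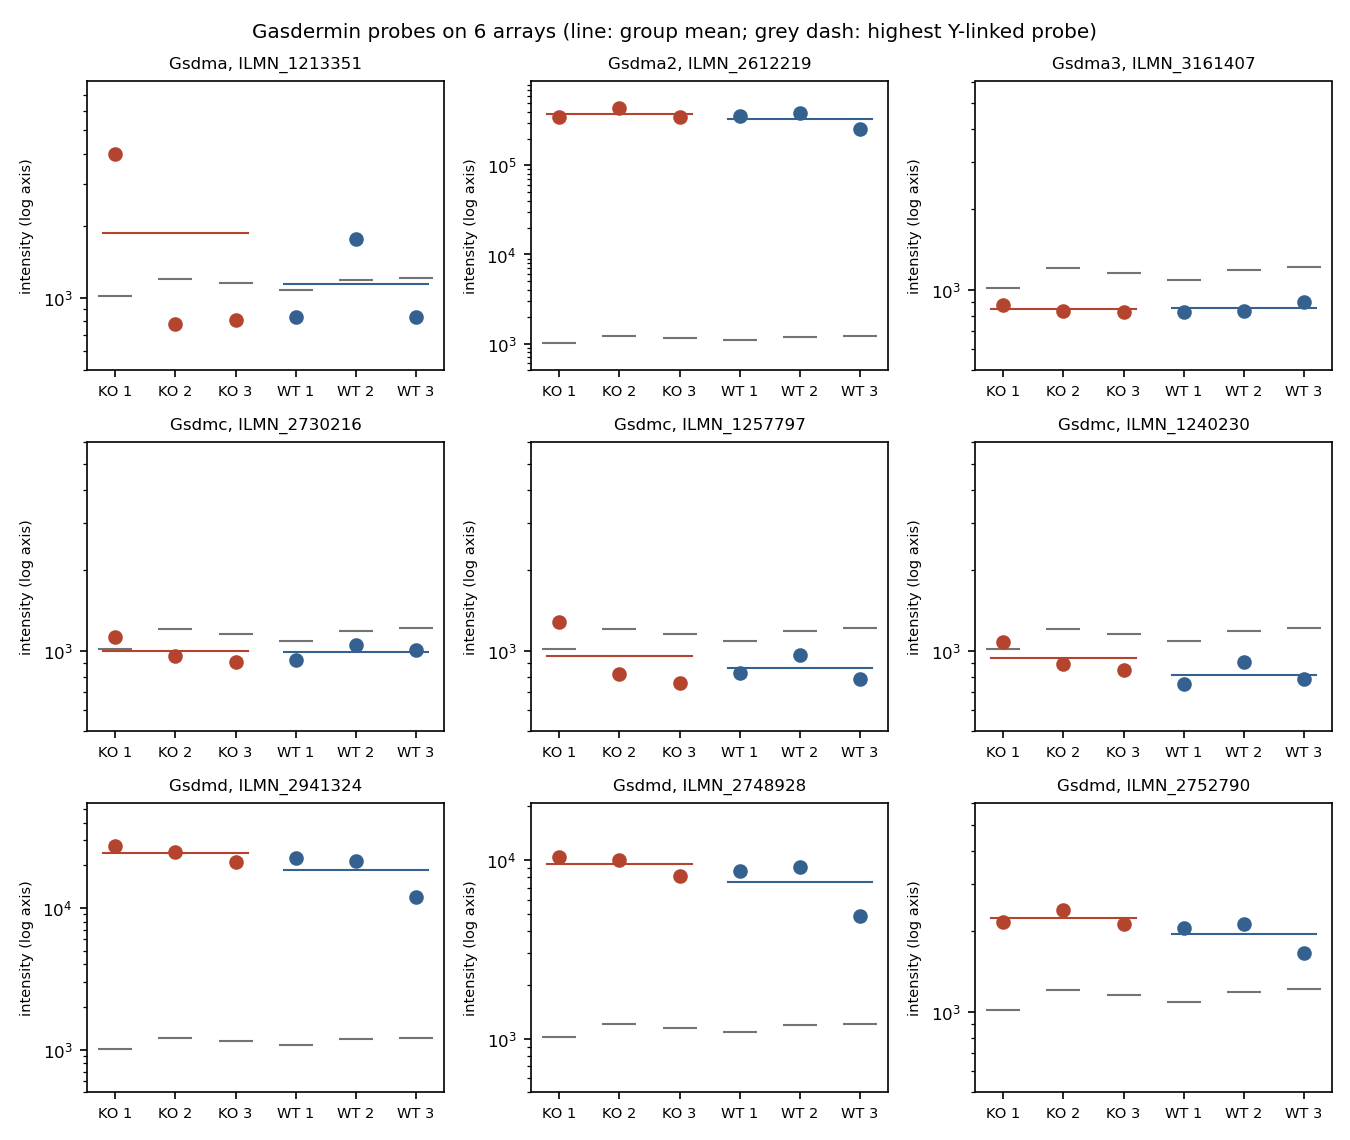
Intensity (log axis) of the 9 gasdermin probes on 3 Lasp1 knockout (KO, red) and 3 wild type (WT, blue) arrays, 1 panel per probe; horizontal lines are group means and grey dashes the highest Y-linked probe of each array. Gsdma2 and the 3 Gsdmd probes lie above the dashes on all 6 arrays, Gsdma on KO 1 and WT 2, the 3 Gsdmc probes on KO 1, and Gsdma3 on none.

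Gsdmc, at chr15:63775971-63808739, is a member of the C group, whose protein is cut by caspase-8 in human cancer cells. Its 3 probes lay near background. Its brightest, ILMN_2730216, read 1125, 961 and 906 on the knockout arrays, against 926, 1047 and 1003 on the wild type arrays. The second, ILMN_1257797, read 1279, 819 and 760 on the knockout arrays, against 827, 966 and 787 on the wild type arrays. The third, ILMN_1240230, read 1080, 890 and 849 on the knockout arrays, against 750, 912 and 785 on the wild type arrays.

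Each Gsdmc probe exceeded the background ceiling on knockout 1 alone, at 1.06 to 1.25 times its value, and knockout 1 was its highest array. The other 5 arrays lay at 0.65 to 0.88 times the ceiling, so their order is one of background values. The log2 differences were 0.0034 (SE 0.13, 95% interval -0.31 to 0.31, limma adjusted p = 0.999), 0.11 (SE 0.21) and 0.20 (SE 0.13), the last pair from the fit of all probes (limma adjusted p = 0.999 each). Without knockout 1 the first 2 probes were at -0.09 and -0.12. The genes most like the brightest Gsdmc probe were the gap junction gene Gjb2 (r = 0.967), the protease inhibitor gene Slpi (0.958), the kallikrein gene Klk6 (0.957), the epidermal lipoxygenase gene Aloxe3 (0.955) and the tight junction gene Cldn1 (0.950), over 6 arrays. Gjb2 read 34410, 1950 and 1568 on the knockout arrays, against 2522, 12531 and 9133 on the wild type arrays. As this Gsdmc probe exceeded the ceiling on knockout 1 alone, these correlations rest on 1 array and on background values. They are given as a description.

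Gsdmd was detected on all 6 arrays by each of its 3 probes. The gene, at chr15:75862144-75867408, encodes the gasdermin that caspase-1 and caspase-11 cut downstream of inflammasomes. The brightest probe, ILMN_2941324, read 27305, 24907 and 21161 on the knockout arrays, against 22684, 21366 and 11994 on the wild type arrays. The second, ILMN_2748928, read 10383, 10029 and 8183 on the knockout arrays, against 8737, 9135 and 4845 on the wild type arrays. The third, ILMN_2752790, read 2173, 2397 and 2135 on the knockout arrays, against 2065, 2136 and 1658 on the wild type arrays. All 3 probes were lowest on wild type 3, and the genotypes overlapped on each.

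The brightest Gsdmd probe averaged 24458 ± 3096 in knockout and 18681 ± 5829 in wild type mucosa (SD, n = 3 each). The log2 differences of the 3 probes were 0.44 (SE 0.26, 95% interval -0.18 to 1.05), 0.38 (SE 0.26, -0.24 to 0.997) and 0.20 (SE 0.14, -0.13 to 0.54), and none passed (limma adjusted p = 0.994 each, exact permutation p = 0.3, 0.3 and 0.2). Without wild type 3 they were 0.14, 0.09 and 0.09, and after quantile normalization 0.25, 0.20 and 0.09. Within titles 1 to 3 they were 0.31, 0.22 and 0.05, and within titles 4 to 6, where wild type 3 is the single wild type array, they were 0.94, 0.90 and 0.45. With the title set as a block they were 0.62, 0.56 and 0.25 (limma unadjusted p = 0.00812, 0.0182 and 0.116, adjusted p = 0.399, 0.399 and 0.411), in a fit where 2717 of 22640 probes had an unadjusted p under 0.05. The third probe stood 1.37 to 2.13 times above the background ceiling, and after normexp background correction with quantile normalization the 3 differences were 0.26, 0.22 and 0.12. The genes most like the brightest probe were Sltm (r = 0.9985), the foregut transcription factor gene Foxa2 (0.9984), the metalloprotease gene Adam9 (0.9974), Inpp5e (0.9973) and Cmas (0.9972). Each was also lowest on wild type 3, which their choice by correlation favours, as were 64.9% of the probes above the filter. The second probe was most like Mgst3, Sdc1, Prelid2, Snrpf and Ccdc160, and the third most like Gch1, Itga3, Dram2, Ceacam2 and Ebp. Foxa2 read 5198, 4752 and 4196 on the knockout arrays, against 4562, 4291 and 2567 on the wild type arrays.

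Over the family, none of the 6 gasdermin probes above the filter passed the threshold, a limma adjusted p under 0.05, at which 0.00883% of 22640 probes passed. None had an unadjusted p under 0.05 in that fit, against 1.73% of probes. With the title set as a block 2 of the 6 did, both of Gsdmd, and with array weights 1 did, Gsdma at -0.84 (limma unadjusted p = 0.0375, adjusted p = 0.139), where 6920 of 22640 probes did. In the fit of all probes none of the 9 passed, against 0.00663%. No gasdermin probe separated the genotypes on all arrays, where 7.81% of all probes and 7.19% of those above the filter did. All 6 probes above the filter had a log2 difference above 0, as did 76.9% of the probes tested, with a median of 0.10 as deposited. Quantile normalization brought that median to 0.0036 and left 5 of the 6 above 0. The intervals were widest for Gsdma and still admit a change of 0.43 to 3.77 times the wild type level.

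**Figure D3:**
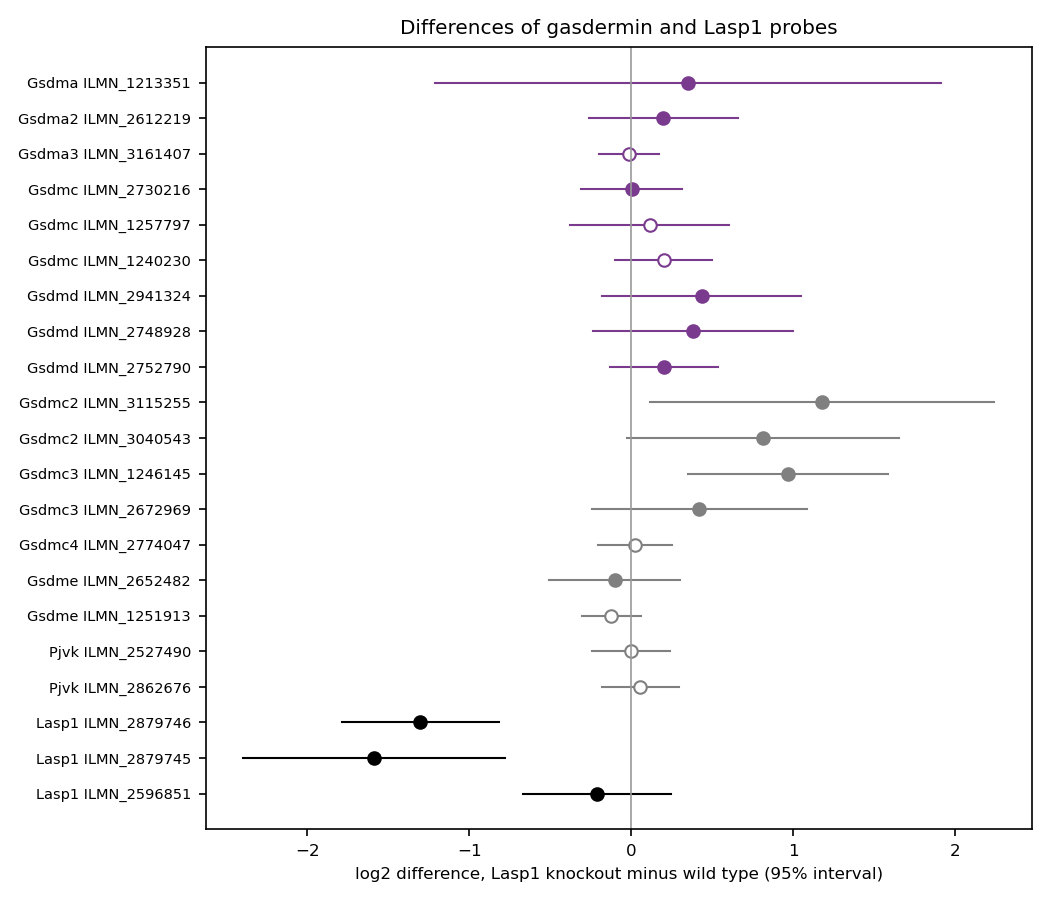
Log2 difference, Lasp1 knockout minus wild type, with its 95% interval from limma, for the probes of the 5 gasdermin members (purple), of 5 other gasdermins (grey) and of Lasp1 (black); open circles are probes under the filter, taken from the fit of all probes. All 9 purple intervals include 0, and those of 2 Lasp1 probes lie below it. The grey intervals of Gsdmc2 ILMN_3115255 (0.12 to 2.24) and Gsdmc3 ILMN_1246145 (0.35 to 1.59) lie above it (limma adjusted p = 0.994 each).

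The other gasdermins include the closest relatives of Gsdmc, which lie beside it on chromosome 15 and are known in the mouse from intestinal epithelium. Gsdmc2 read 4420, 12373 and 14156 on the knockout arrays with its brightest probe, ILMN_3115255, against 3606, 3379 and 5452 on the wild type arrays. Knockout 2 and 3 were high and knockout 1 lay among the wild type values. The log2 difference was 1.18 (SE 0.45, 95% interval 0.12 to 2.24, limma unadjusted p = 0.0341, adjusted p = 0.994), and its second probe gave 0.82 (SE 0.35). Within titles 1 to 3, where knockout 1 is the single knockout array, the brightest probe differed by 0.34. Within titles 4 to 6, where wild type 3 is the single wild type array, it differed by 1.28.

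Gsdmc3 read 1936, 2561 and 3067 on the knockout arrays with its brightest probe, ILMN_1246145, against 909, 1380 and 1622 on the wild type arrays. All knockout values lay above all wild type values, with a log2 difference of 0.97 (SE 0.26, exact permutation p = 0.1, limma unadjusted p = 0.00781, adjusted p = 0.994). Its second probe, ILMN_2672969, read 905, 1746 and 1891 on the knockout arrays, against 1032, 1032 and 1168 on the wild type arrays. That probe differed by 0.42 (SE 0.28). It stood above the background ceiling on knockout 2 and 3 alone, at 1.45 and 1.64 times its value. Knockout 1 and the wild type arrays lay at 0.87 to 0.96 times the ceiling, so their order is one of background values. On knockout 1 the brightest probe stood at 1.90 times the ceiling. The C genes are near copies of each other, and whether the probes of Gsdmc2 and Gsdmc3 read 1 transcript was not tested. Of 9 intestinal markers 4 were at background on all arrays, Fabp1 and Fabp2 among them, and the list summed to 331067 to 399709 in knockout and 283500 to 326322 in wild type mucosa, most of it from the apolipoprotein gene Apoa1. The part of such cells in the Gsdmc2 and Gsdmc3 values was not tested.

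Gsdmc4 stayed below the ceiling on all 6 arrays, at 863 to 1065 in knockout and 920 to 957 in wild type mucosa. The 2 probes of Pjvk, the pejvakin gene known from hearing, stayed below it too. Gsdme, whose protein is cut by caspase-3, read 1255, 1383 and 1070 on the knockout arrays with its brighter probe, against 1535, 1362 and 1098 on the wild type arrays, a log2 difference of -0.10 (SE 0.17). Its second probe, ILMN_1251913, lay below the ceiling on all arrays, at 787 to 859 in knockout and 860 to 914 in wild type mucosa, without overlap (log2 difference -0.12, exact permutation p = 0.1). Of the 5 other gasdermins 3 had a probe above the filter and none passed the threshold, as 0.00883% of the probes tested did.

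The genes that act around gasdermins did not pass either, at a threshold that 0.00883% of the 22640 probes tested passed. Among sensors and the adaptor of inflammasomes, 11 of 14 listed genes had a named probe and 5 lay above the filter. All 5 had differences above 0, as 76.9% of the probes tested had. Their median was 0.15, against 0.10 over all probes tested. Nlrc4, the sensor that responds to bacterial flagellin through NAIP proteins, differed by 0.30 (SE 0.14) and the adaptor gene Pycard by 0.34 (SE 0.24). Pycard read 2550, 4435 and 4667 on the knockout arrays, against 2789, 3057 and 3084 on the wild type arrays, with knockout 1 below the wild type values. Nlrp12 had the smallest p in that list and read below the background ceiling on every array (764 to 811 in knockout and 844 to 960 in wild type mucosa).

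Of 9 proteases that cut gasdermins, 6 had a named probe and 3 lay above the filter. Casp8, the caspase of death receptors, read 17657, 22501 and 19375 on the knockout arrays, against 17006, 15596 and 11410 on the wild type arrays. Its groups did not overlap, and its log2 difference of 0.45 (SE 0.19) had an unadjusted p of 0.0465 and an adjusted p of 0.994 in limma. A second Casp8 probe differed by 0.51 (SE 0.28). Casp1, which cuts Gsdmd and the interleukin-1 precursor, read 4334, 1549 and 1245 on the knockout arrays, against 1767, 2403 and 1020 on the wild type arrays. It was highest on the same 2 arrays as Gsdma, where squamous markers and S100a9 were high too. Its difference was 0.32 (SE 0.51). Casp4, the gene of caspase-11, differed by 0.19 (SE 0.16).

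Cytokine and membrane rupture genes all had a named probe, 5 of 7 above the filter, 4 with differences above 0 and 1 below, with a median of 0.26. Over all probes tested 76.9% lay above 0, with a median of 0.10. The alarmin gene Il33 read 9993, 35691 and 31236 on the knockout arrays, against 6044, 13467 and 17840 on the wild type arrays, a difference of 0.98 (SE 0.58). As for Gsdmc2, knockout 2 and 3 were high and knockout 1 lay among the wild type values. Hmgb1 and Il1a, both under the filter, differed by 0.15 each. The 9 genes of membrane repair and of gasdermin palmitoylation were all above the filter and all above 0, as 76.9% of the probes tested were, with a median of 0.18 against 0.10 over those probes. None had an unadjusted p under 0.05 in limma, as 1.73% of the probes did. Zdhhc5 differed by 0.31, the repair gene Pdcd6ip by 0.40 and Zdhhc9 by 0.36.

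The last list held transcription factors and TGF-beta pathway genes tied to gasdermin genes. Of 12, 10 had a named probe, and of the 9 above the filter 6 were above 0 and 3 below, with a median of 0.15. Over all probes tested 76.9% lay above 0, with a median of 0.10. Irf2, which drives Gsdmd transcription in mouse macrophages, read 59032, 61237 and 59354 on the knockout arrays, against 54096, 50139 and 46752 on the wild type arrays. Its groups did not overlap, and it differed by 0.25 (SE 0.11, limma adjusted p = 0.994). Smad2 differed by 0.37 (SE 0.18). The brightest probe of Irf1 differed by 0.66 (SE 0.36, unadjusted p = 0.111), and its 3 other probes by 0.32 to 0.75, 2 of them with an unadjusted p under 0.05 in limma (0.0311 and 0.0367) and none with an adjusted p under 0.05. Lmo1, named as a partner of human GSDMA control in the stomach, lay under the filter.

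The A group lies on the chromosome of Lasp1, so its neighbours were described as well. Gsdma3 begins 788 kb beyond the end of Lasp1 with 38 annotated genes between, 23 of them protein-coding, and the 3 A genes span 51.4 kb. Of the genes between, 21 had a named probe and 15 lay above the filter, with 8 differences above 0, 7 below and a median of 0.05. Over all probes tested 76.9% lay above 0. None of the 15 passed, as 0.00883% of the probes tested did. Among the 21 the smallest p belonged to B230217C12Rik, under the filter, with a difference of 0.27 (SE 0.09, limma unadjusted p = 0.0277, adjusted p = 0.999). It read below the background ceiling on every array, at 957 to 1104 in knockout and 789 to 914 in wild type mucosa. Med1, a Mediator subunit gene, differed by 0.43 (SE 0.18). Of the 20 genes nearest to the A group, 10 on each side, 12 had a named probe and 8 lay above the filter, with 5 differences above 0, 3 below and a median of 0.10. The smallest p among these nearest genes belonged to Mien1, which read 59617, 93220 and 96908 on the knockout arrays, against 50156, 55226 and 64992 on the wild type arrays, with a log2 difference of 0.53 (SE 0.22, limma adjusted p = 0.994). On the Lasp1 side Grb7 differed by 0.25, Ikzf3 by -0.15 and Ormdl3 by -0.05, and on the far side Med24 by 0.13, Thra by 0.07, Nr1d1 by -0.14 and Msl1 by 0.20, each with an SE between 0.12 and 0.29. Zpbp2, Lrrc3c, Psmd3 and Csf3 were under the filter, with differences of -0.04, 0.01, 0.15 and -0.06. Psmd3 read below the background ceiling on every array, at 856 to 947 in knockout and 780 to 821 in wild type mucosa. Its groups did not overlap, as for 7.81% of all probes. None of the 8 genes above the filter separated the genotypes, where 7.19% of probes did.

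**Figure D4:**
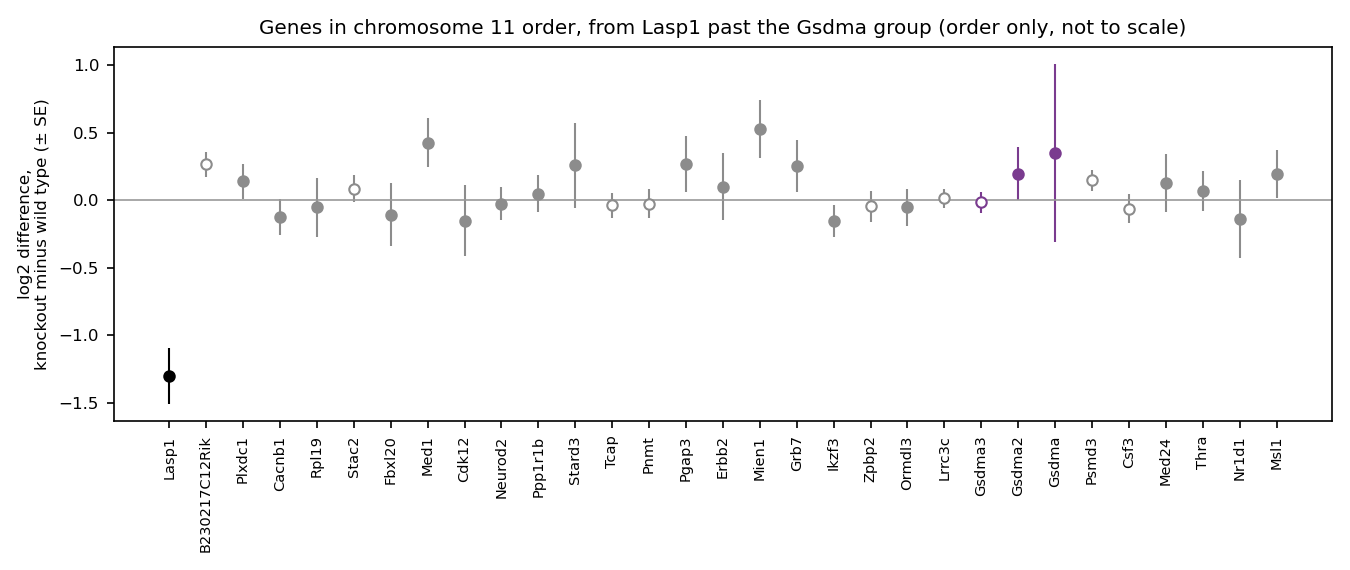
Log2 difference, Lasp1 knockout minus wild type (± SE from limma), of the brightest probe of Lasp1 and of each gene with a named probe from there to the 10th gene past the A group, in chromosome order and not to scale; purple points are the A genes and open circles are genes under the filter. Lasp1 lies at -1.30, and the A genes lie at -0.01, 0.20 and 0.35, in the range of their neighbours.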

How the data were processed

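The deposited table holds linear probe intensities of the 6 arrays (3 Lasp1 knockout, 3 wild type), which the authors had scaled, to judge from a median of 1000 on every array. Labelling used the Ambion MessageAmp kit, per the labels' protocols. For the scanner, its software and the background step nothing is stated. Of the probes, 34885 had 1 gene symbol in the platform annotation, 18 had several and 10378 had none, and 34807 matched the GRCm38.p6 gene table by identifier.

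Groups came from the sample titles. Intensities were log2 transformed, with a floor of 16 that no value reached. Probes with a mean above the median probe (intensity 991) were kept and tested, knockout minus wild type, by a two-sided limma test (version 3.58.1, R 4.3.3), its p-values adjusted by Benjamini-Hochberg over 22640 probes. Members under this filter were taken from a fit of all 45281 probes. A gene with several probes was given by its brightest in lists. Single probes had an exact permutation test. The number of arrays limits the precision, and so do background signal and the tissue mix of single arrays.

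The members and lists were chosen with earlier results of these data known. Genes named were all member, other gasdermin and Lasp1 probes, the 5 genes of highest correlation with a member probe above the filter, the measured neighbours of the A group, and the 3 of smallest p in each other list. Lmo1, B230217C12Rik and Med1 were named outside this rule, after their values were seen. Alternatives covered normalization, background, filters, variance models, blocks, covariates and left-out arrays. Same-numbered knockout and wild type replicates deviated with correlations of 0.04, -0.30 and 0.53, so the numbers were not taken to pair samples. Plots used Python 3.11.15 and matplotlib 3.10.9.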

Additional observations from a re-analysis of the deposited data

How the results depend on the processing

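No gasdermin probe passed the threshold under any of the 19 alternatives run across all probes (smallest limma adjusted p 0.139, for Gsdma with array weights), and 141 of 158 gasdermin values kept their direction. The alternative filters, limma-trend, robust eBayes and the replicate block leave each log2 difference unchanged. Values under these could not change direction, and they are counted among the 141. Over all probes, where 2 passed, 0 passed with the filter at the 75th percentile and with the replicate block (a number that did not pair the samples). Without both arrays richest in squamous transcripts 0 passed too. With tissue scores as covariates 8 passed and with array weights 1816, a fit that rests on wild type 2 (weight 38.8 against at most 1.60). Leaving out 1 array gave 0 to 3. The replicate block left the Gsdmd difference at 0.44 (probe ILMN_2941324, unadjusted p = 0.0365, adjusted p = 0.863), the single gasdermin probe with an unadjusted p under 0.05 there, as 753 of 22640 probes had. The 17 values of opposite sign were as follows. With array weights they were -0.84 for Gsdma, 0.0099 for Gsdma3, and -0.12, -0.15 and -0.00038 for the Gsdmc probes ILMN_2730216, ILMN_1257797 and ILMN_1240230. The dim Lasp1 probe ILMN_2596851 was at 0.13 there and at -0.21 in the reported test. Without both squamous arrays they were -0.063 for Gsdma, and -0.046 and -0.032 for the first 2 Gsdmc probes. Leaving out single arrays gave -0.42 to 0.75 for Gsdma, -0.043 to 0.026 for Gsdma3, and -0.086 to 0.069 and -0.12 to 0.26 for these Gsdmc probes. Gsdma3 was at 0.015 with covariates. ILMN_2730216 was at -0.013 after quantile normalization and -0.044 after normexp with quantile normalization. The cause of these changes was not tested. Gsdma2 and the 3 Gsdmd probes stayed above 0 under every alternative run, where 76.9% of all probes tested lay above 0 in the reported test. Without wild type 3 these 4 probes came to 0.01, 0.14, 0.09 and 0.09. Within titles 1 to 3, a split not among the alternatives, Gsdma2 was at -0.09. The mean of the 3 Gsdmd probes differed by 0.34. Lasp1 passed with array weights, with covariates and after cyclic loess, and its second probe without wild type 3 (adjusted p = 0.0318). Background near the median of each array limits Gsdma, Gsdma3 and Gsdmc most.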
